A study of Mus musculus with 9 samples.

Results

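Beta-catenin is held in check in the cytoplasm by the destruction complex, in which the scaffolds Axin and APC bring it to glycogen synthase kinase 3, whose phosphorylation marks it for degradation, and WNT signals stop this. The same protein also sits at adherens junctions, where it links the tails of classical cadherins to alpha-catenin and, through it, to actin. Granulosa cells, the follicle cells around the oocyte, hold to each other through N-cadherin junctions, so both roles of beta-catenin bear on this tissue. The account below covers 10 genes of these 2 protein assemblies: Ctnnb1 (beta-catenin) and its close relative Jup (plakoglobin), the destruction complex genes Axin1, Apc and Gsk3b, the junction catenins Ctnna1 (alpha-E-catenin) and Ctnnd1 (p120), and the cadherins Cdh2, Cdh3 and Cdh11. They were taken by gene symbol, as every probe set whose only symbol in the array annotation is one of these names. That gave 29 probe sets among the 45037 tested, which stand for 18193 genes.

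RNA came from cultured mouse granulosa cells on 9 Affymetrix mouse arrays, with 3 arrays for each adenovirus: one that overexpresses WNT4, one that carries Cre recombinase, and one that carries enhanced GFP as the control. Mice 20 to 26 days old had received equine chorionic gonadotrophin, which makes follicles grow, 48 h before their cells were released by needle puncture, and the cultures were infected for 24 h in serum-free medium. A serum content of 1% and a plating density of 50% are also recorded for the cultures of every group. The study describes mice of several genotypes and reports from preliminary work that the Cre virus recombined floxed Ctnnb1 efficiently and that the WNT4 virus gave strong overexpression. No source used here gives the genotype of each group, so genotype and virus cannot be told apart. Every group was infected, and the efficiency stated from preliminary GFP infections is above 80% at a multiplicity of about 50, so some cells of each culture may carry no virus. The replicates are labelled biological, without a word on whether animals or cultures were separate, and the p-values therefore speak of array-to-array spread alone. Values are deposited log2 RMA values.

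Of 9 granulosa markers 8 had a mean of at least 6 over the arrays, Inha at 12.88 to 13.96 and Foxl2 at 10.09 to 10.70 among them. Markers of other cells reached that level too: 7 of 8 oocyte genes, 6 of 9 of theca and stroma, and 4 of 7 of leukocytes. So did 2 of 7 endothelial genes, though Cdh5 was dim (4.77 to 5.24). Of 8 genes of the surface epithelium 2 did, Krt8 (9.82 to 10.73) and Krt18 (8.13 to 8.63), while Cdh1 was dim (4.14 to 4.81). Array WNT4 1 stood apart: it had the highest upper quartile (8.003, beside 7.68 to 7.87 on the others) and the largest 3' minus 5' differences of the beta-actin (1.38) and Gapdh (2.17) controls. Arrays WNT4 3 and Cre 3 deviated together from their group means (r = 0.77 over all probe sets). In bulk RNA of this kind, fewer cells of a type and less RNA per cell cannot be told apart.

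Within a gene the probe sets lay far apart, and RMA values of different probe sets are not comparable as amounts of RNA. Of the 29 probe sets, 18 had a mean of at least 6 over the 9 arrays and 11 did not. The dim ones were both probe sets of Cdh3 (means 5.15 and 4.46) and both of Cdh11 (5.03 and 4.01), along with 2 of Ctnna1, 2 of Gsk3b and 1 each of Ctnnd1, Apc and Axin1. Cdh3 encodes P-cadherin and Cdh11 a cadherin of mesenchymal cells. The brightest Ctnnb1 probe set, 1420811_a_at, had a mean of 13.43, higher than 99.6% of all probe sets, and the brighter Ctnna1 probe sets followed at 12.82 and 12.73.

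No probe set of these genes passed the test in any comparison. In the fit with limma across all 45037 probe sets, 0 of 29 were called at an adjusted p under 0.05 in WNT4 against GFP, where 0.0155% of all probe sets were called. None of the 29 was called in Cre against GFP (0% of all) or in WNT4 against Cre (0% of all). At an unadjusted p under 0.05, 4 of the 29 were higher and 0 lower with WNT4 than with GFP, beside 13% of all probe sets in either direction, 9.12% higher and 3.91% lower. In Cre against GFP 0 were higher and 1 lower (all probe sets 2.23%, with 1.01% higher and 1.22% lower), and in WNT4 against Cre 4 were higher and 0 lower (6.23%, with 5.07% higher and 1.17% lower). Single arrays moved these counts: with one left out they ran from 1 (without WNT4 1) to 7 (without GFP 3 or WNT4 2) in WNT4 against GFP, from 0 to 3 (without GFP 3) in Cre against GFP and from 2 to 7 (without Cre 2) in WNT4 against Cre, and quantile normalization gave 2, 0 and 3. Groups did not overlap in 5 of the 29 for WNT4 and GFP (14.8% of all probe sets), in 1 for Cre and GFP (6.02%) and in 5 for WNT4 and Cre (8.23%).

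The 4 probe sets higher with WNT4 than with GFP at an unadjusted p were 1 each of Ctnnb1, Axin1, Apc and Gsk3b. The median difference of the 29 was 0.10 for WNT4 against GFP, 0.04 for Cre against GFP and 0.06 for WNT4 against Cre on the log2 scale, where all probe sets had medians of -0.0016, -0.02 and 0.02. Among the 18 brighter members the medians were 0.24, 0.12 and 0.17, and those of all 18658 probe sets that bright were 0.16, 0.03 and 0.12. In WNT4 against GFP 4 of these 18 had an unadjusted p under 0.05, and so did 24.4% of all probe sets that bright.

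**Figure D1:**
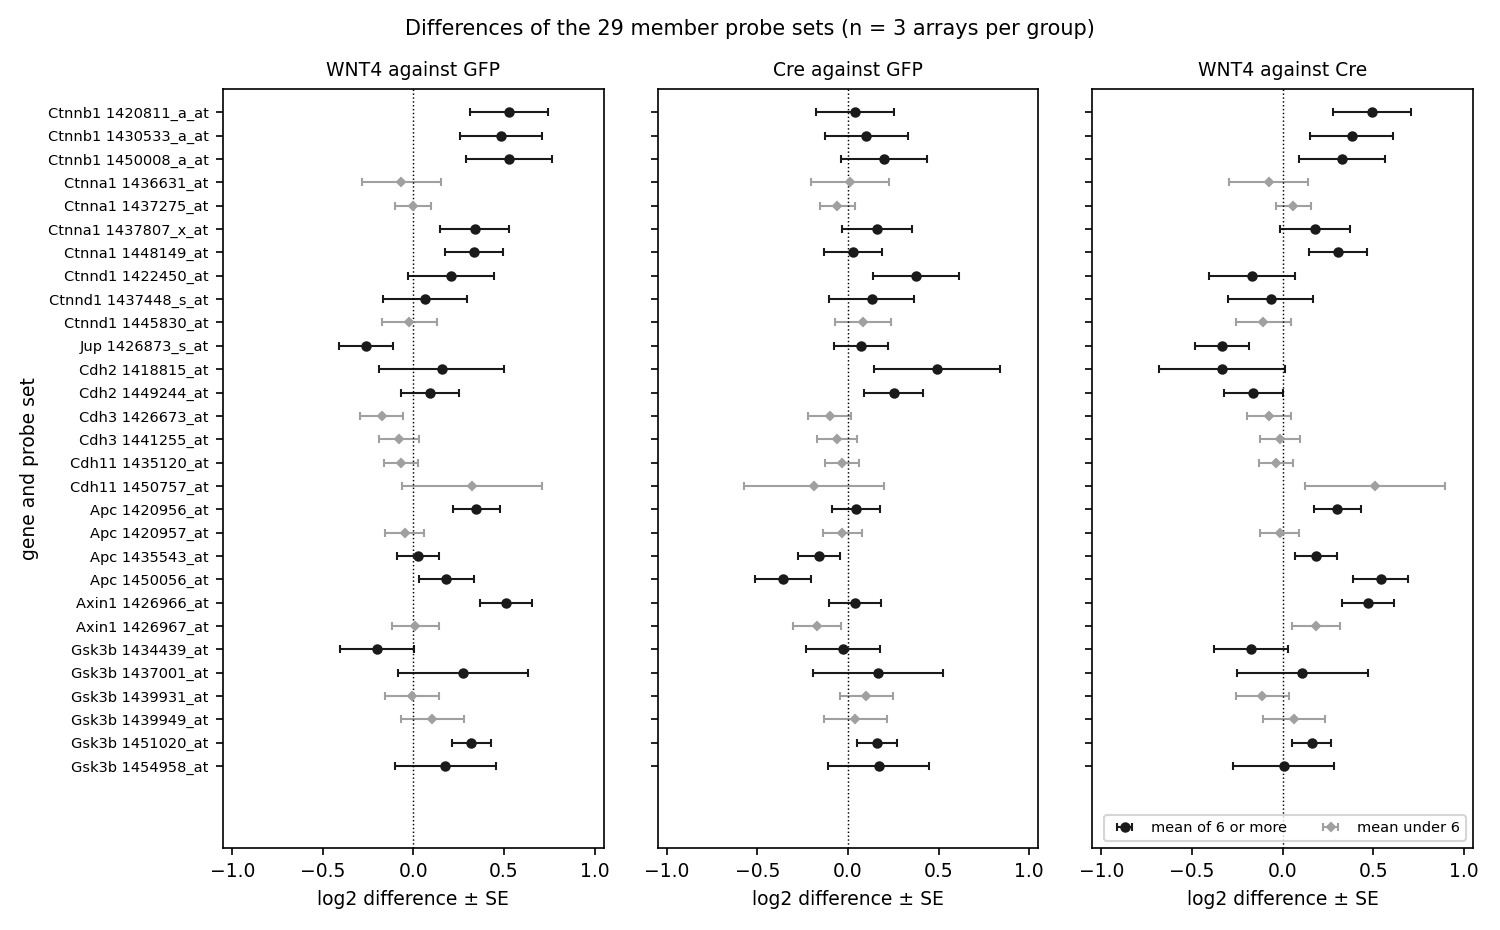
Log2 difference with its standard error (x axis) for each of the 29 probe sets (y axis) in WNT4 against GFP, Cre against GFP and WNT4 against Cre, with dim probe sets in grey. Ctnnb1 and the brighter Axin1 probe set lie about 0.5 above 0 with WNT4 against GFP, and Apc 1450056_at lies at -0.36 with Cre against GFP.

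Ctnnb1, which encodes beta-catenin and is the gene of the floxed allele that the study describes, was read by 3 probe sets. In 1420811_a_at the WNT4 arrays 1 to 3 read 14.08, 13.44 and 13.80, the Cre arrays 12.96, 13.55 and 13.33, and the GFP arrays 13.40, 12.92 and 13.42. Each WNT4 array lay above each GFP array, the closest pair being WNT4 2 and GFP 3, while the Cre arrays fell among both. The second, 1450008_a_at, read 10.35, 9.95 and 9.70 with WNT4, 9.54, 10.15 and 9.33 with Cre, and 9.56, 9.23 and 9.61 with GFP, again without overlap between WNT4 and GFP. In 1430533_a_at the groups overlapped: WNT4 read 8.35, 7.76 and 7.61, Cre 7.39, 7.89 and 7.31, and GFP 7.44, 7.19 and 7.65. In all 3 probe sets WNT4 1 was the highest of the 9 arrays, Cre 2 the highest Cre array and GFP 2 the lowest GFP array.

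The differences of Ctnnb1 from GFP were similar over its 3 probe sets with WNT4, and with Cre they were smaller than their standard errors. With WNT4 they were 0.53 ± 0.21, 0.53 ± 0.24 and 0.48 ± 0.23 (SE, n = 3 arrays per group) for 1420811_a_at, 1450008_a_at and 1430533_a_at, or 1.44-fold, 1.44-fold and 1.40-fold. None passed limma's test (adjusted p = 0.35, 0.391 and 0.417). Without WNT4 1 they were 0.38, 0.35 and 0.26. The marker lists of oocyte, theca and stroma, and endothelium were highest on WNT4 1, at 1.59, 0.73 and 0.32 relative to the GFP arrays. The oocyte list, in which 7 of 8 genes had a mean of at least 6, ran from -0.06 to 1.59 with WNT4. It ran from -0.20 to 0.99 with Cre and from -0.43 to 0.67 with GFP. In these groups it was highest on Cre 1 and GFP 2. There Ctnnb1 1420811_a_at was the lowest of its group, at 12.96 on Cre 1 and 12.92 on GFP 2. The part of these lists in the Ctnnb1 values was not tested.

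**Figure D2:**
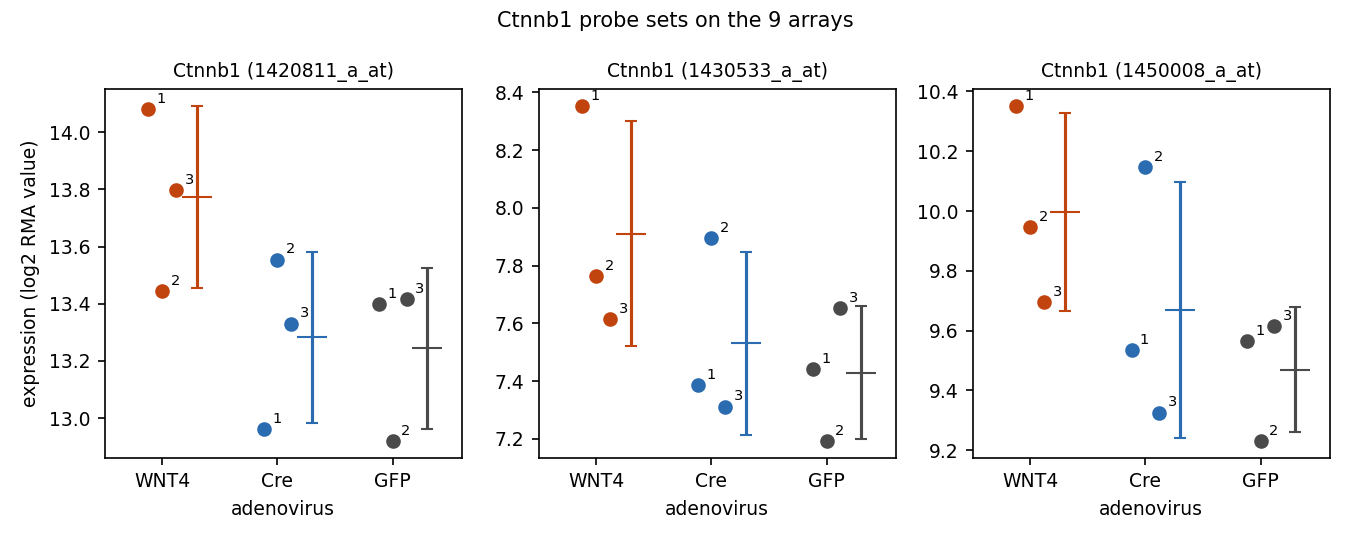
Log2 RMA value (y axis, a scale of its own in each panel) of the 3 Ctnnb1 probe sets on each array by adenovirus (x axis), with replicate numbers beside the points and the group mean and SD as a bar. In 1420811_a_at the WNT4 arrays lie between 13.44 and 14.08 and the GFP arrays between 12.92 and 13.42, with the Cre arrays between 12.96 and 13.55.

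The study reports that the Cre virus recombined floxed Ctnnb1 in preliminary work, but whether the cells on these arrays held a floxed allele is not given. Between Cre and GFP the 3 Ctnnb1 probe sets showed no difference of settled direction. The difference was 0.04 in 1420811_a_at with a 95% interval from limma of -0.45 to 0.52, 0.20 in 1450008_a_at (-0.34 to 0.74) and 0.10 in 1430533_a_at (-0.41 to 0.62). Without Cre 2 all 3 were below 0, at -0.098, -0.039 and -0.081, and after quantile normalization 1420811_a_at was at -0.058 and the others above 0. The lower ends of the intervals allow a fall to 0.733-fold, 0.792-fold and 0.751-fold of the GFP level. No source used here places the probe sets relative to the recombined exons, so whether they can show recombination is not known. WNT4 against Cre gave 0.49 ± 0.21, 0.33 ± 0.24 and 0.38 ± 0.23 in the same order of probe sets (limma adjusted p = 0.799, 0.917 and 0.88). Without WNT4 1 these were 0.34, 0.15 and 0.16, and after quantile normalization 0.11, 0.14 and 0.29.

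The difference with WNT4 has to be read beside the level of the probe set, because bright probe sets as a whole were higher on the WNT4 arrays. Over all probe sets the median difference from GFP was -0.04 below a mean of 6, 0.04 from 6 to 8, 0.19 from 8 to 10, 0.28 from 10 to 12 and 0.41 at 12 and over, where 94.6% of 836 probe sets were higher with WNT4. The brightest Ctnnb1 probe set (0.529) lay at the upper quartile of that top class (0.524). The other probe sets of Ctnnb1 stood above the upper quartiles of their own classes, 1450008_a_at at 0.53 beside 0.38 and 1430533_a_at at 0.48 beside 0.26. Quantile normalization, which gives all arrays the same distribution, left 0.05 ± 0.12 in 1420811_a_at, 0.31 ± 0.20 in 1450008_a_at and 0.35 ± 0.19 in 1430533_a_at. In Cre against GFP the median of all probe sets at 12 and over was 0.06.

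**Figure D3:**
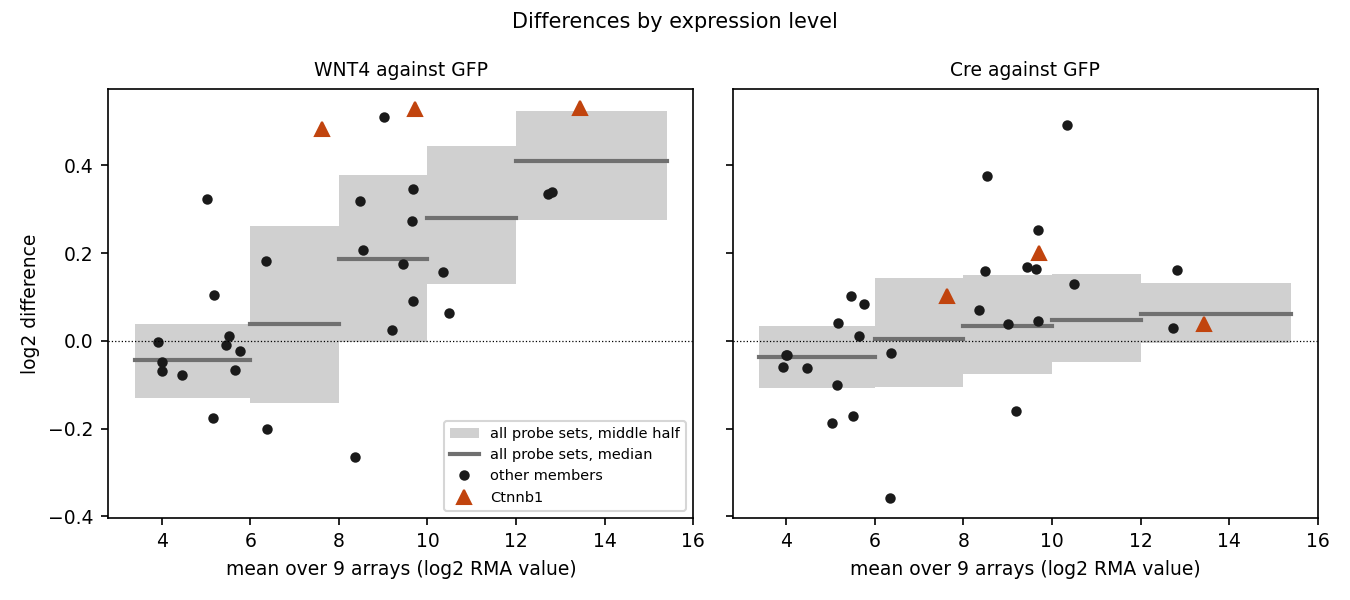
Log2 difference (y axis) against the mean over the 9 arrays (x axis) for the 29 member probe sets, with the median (line) and the range between the quartiles (grey) of all probe sets in 5 classes of level, for WNT4 against GFP and Cre against GFP. With WNT4 the medians of all probe sets climb to 0.41 in the brightest class, and the triangles of Ctnnb1 lie at or above the grey area.

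WNT signals reach their targets through TCF and LEF factors, which hold beta-catenin at DNA with the core motif CTTTGA. The promoters are shown for Ctnnb1, whose floxed form the Cre virus recombined in the study's preliminary work, and Gsk3b, the member whose window holds this core. RefSeq promoter windows of GRCm38.p6, from 250 bases before to 50 after a start, were matched by symbol for 4 of the 10 genes (Ctnnb1, Ctnnd1, Gsk3b and Jup, 6 windows in all). The core, searched on both strands as CTTTGA and TCAAAG, occurs in 1 of the 6, that of Gsk3b, and in 16% of all 32851 windows. It begins 77 bases before the Gsk3b start and is in capitals. The first sequence is the downstream of the 2 Ctnnb1 windows, chr9:120933328-120933627 on the + strand, and the second is chr16:38088751-38089050 on the + strand.
Ctnnb1: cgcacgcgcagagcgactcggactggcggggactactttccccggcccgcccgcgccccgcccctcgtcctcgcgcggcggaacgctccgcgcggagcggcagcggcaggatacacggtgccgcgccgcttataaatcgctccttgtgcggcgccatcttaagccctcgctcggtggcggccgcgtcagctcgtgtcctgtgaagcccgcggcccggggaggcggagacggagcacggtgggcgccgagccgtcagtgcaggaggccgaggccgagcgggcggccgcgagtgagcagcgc
Gsk3b: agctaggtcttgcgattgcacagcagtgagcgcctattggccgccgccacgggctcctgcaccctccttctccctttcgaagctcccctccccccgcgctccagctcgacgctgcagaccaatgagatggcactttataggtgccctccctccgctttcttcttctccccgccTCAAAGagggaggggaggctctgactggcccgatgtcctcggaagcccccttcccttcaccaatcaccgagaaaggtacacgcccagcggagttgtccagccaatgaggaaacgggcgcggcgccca
A match is a description of letters, and neither window was measured here.

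Jup, the closest relative of beta-catenin, which serves both desmosomes and adherens junctions, was read by 1 probe set, 1426873_s_at. It read 8.06, 8.42 and 7.99 with WNT4, 8.42, 8.39 and 8.66 with Cre, and 8.39, 8.24 and 8.63 with GFP. WNT4 1 and WNT4 3 were the lowest of the 9 arrays, and WNT4 2 lay among the other groups. The difference was -0.26 ± 0.15 against GFP and -0.33 ± 0.15 against Cre, the opposite sign to Ctnnb1 (limma adjusted p = 0.493 and 0.799). It was larger after quantile normalization, -0.43 ± 0.17 against GFP and -0.45 ± 0.17 against Cre (unadjusted p = 0.0296 and 0.0241 in limma, neither passing after adjustment). Leaving out single arrays moved the difference from GFP between -0.39 without WNT4 2 and -0.16 without GFP 3. The median of all probe sets between 8 and 10 was 0.19 in WNT4 against GFP, and Jup lay below the lower quartile of that class (-0.0017).

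Axin1, the scaffold on which beta-catenin is phosphorylated, had the lowest p of the 29 probe sets in WNT4 against GFP. Its brighter probe set, 1426966_at, read 9.53, 9.03 and 9.47 with WNT4, 8.99, 8.82 and 8.82 with Cre, and 8.76, 8.76 and 8.99 with GFP. All WNT4 arrays lay above all arrays of both other groups, with WNT4 2 only just above. The difference was 0.51 ± 0.14 against GFP, or 1.42-fold, and 0.47 ± 0.14 against Cre, or 1.39-fold (limma adjusted p = 0.231 and 0.773).

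Between Cre and GFP arrays Axin1 differed by 0.04 ± 0.14, with a 95% interval of -0.28 to 0.36. With WNT4 its difference from GFP lay above the upper quartile of all probe sets between 8 and 10 (0.38). It was 0.31 ± 0.11 after quantile normalization and 0.36 ± 0.13 after centring each array on its 75th percentile. Leaving out single arrays gave 0.42 to 0.67. Without WNT4 2 it was 0.67 at an adjusted p of 0.0424 in limma, 1 of 748 calls made without that array. The dim probe set 1426967_at differed by 0.01 ± 0.13 against GFP.

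Apc encodes the large scaffold that works beside Axin, and its probe sets disagreed. In 1420956_at the WNT4 arrays read 10.06, 9.69 and 9.93, the Cre arrays 9.39, 9.77 and 9.61, and the GFP arrays 9.45, 9.58 and 9.61, so WNT4 lay above GFP throughout (0.35 ± 0.13, or 0.12 ± 0.09 after quantile normalization and 0.26 without WNT4 1). In 1435543_at the difference was 0.03 ± 0.12. The dimmer 1450056_at read 6.59, 6.92 and 6.28 with WNT4, 6.04, 6.04 and 6.09 with Cre, and 6.50, 6.48 and 6.27 with GFP.

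That last probe set was the only one of the 29 with an unadjusted p under 0.05 in Cre against GFP. All 3 Cre arrays lay below all other arrays, with a difference from GFP of -0.36 ± 0.15 (0.78-fold, adjusted p = 1.00 in limma). WNT4 against Cre gave 0.54 ± 0.15 (adjusted p = 0.773). The dim 1420957_at differed by -0.05 ± 0.11 with WNT4 and -0.03 ± 0.11 with Cre from GFP. The other 2 brighter Apc probe sets differed by 0.04 and -0.16 in Cre against GFP, and the 3 correlated at 0.23 to 0.53 with each other over the 9 arrays, a description with no p.

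Gsk3b, the kinase that phosphorylates beta-catenin, had 6 probe sets, and they did not all move together. In 1451020_at the WNT4 arrays read 8.74, 8.63 and 8.56, the Cre arrays 8.38, 8.55 and 8.53, and the GFP arrays 8.37, 8.14 and 8.47. WNT4 lay just above both other groups, by 0.32 ± 0.11 against GFP (limma adjusted p = 0.286) and 0.16 ± 0.11 against Cre. After quantile normalization the difference from GFP was 0.14 ± 0.09, and without WNT4 1 it was 0.27. The probe set 1454958_at instead had its highest value on GFP 1 (9.94) and its lowest on GFP 3 (8.79), with WNT4 at 9.74, 9.57 and 9.20 and Cre at 9.30, 9.80 and 9.38.

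A further Gsk3b probe set, 1437001_at, followed neither of these. It read 9.41, 9.37 and 10.53 with WNT4, 9.12, 9.77 and 10.09 with Cre, and 9.49, 9.12 and 9.87 with GFP, so the array numbered 3 was the highest of each group. The dim 1439931_at and 1439949_at were also highest on the array numbered 3 of each group. Over the 9 arrays 1437001_at correlated with 1454958_at at -0.27, with 1451020_at at 0.38 and with 1434439_at at 0.56. The lowest difference from GFP with WNT4 was that of 1434439_at (-0.20 ± 0.21), and the dim 1439931_at and 1439949_at differed by -0.01 ± 0.15 and 0.10 ± 0.17. The 6 differences from GFP spread from -0.20 to 0.32 with WNT4 and from -0.03 to 0.17 with Cre and none passed limma's test after adjustment.

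Ctnna1, which joins the cadherin and beta-catenin complex to actin, followed the brightest Ctnnb1 probe set closely. Its probe set 1448149_at read 13.11, 12.73 and 12.99 with WNT4, 12.36, 12.85 and 12.69 with Cre, and 12.65, 12.40 and 12.77 with GFP. WNT4 2 lay below GFP 3, so the groups overlapped. The difference was 0.34 ± 0.16 against GFP in this probe set and 0.34 ± 0.19 in 1437807_x_at, whose type of probe set can also pick up related sequences. Both lay under the median of all probe sets at 12 and over (0.41). The dim 1436631_at and 1437275_at differed by -0.07 ± 0.22 and -0.0021 ± 0.10 from GFP. After quantile normalization the brighter 1448149_at and 1437807_x_at turned below 0, to -0.07 ± 0.09 and -0.08 ± 0.10.

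Ctnna1 was also among the 5 genes whose pattern was most like that of Ctnnb1. Among 16930 bright probe sets (mean of at least 6, 1 symbol), the highest Pearson r with Ctnnb1 1420811_a_at over the 9 arrays belonged to Skp1, a subunit of the ubiquitin ligase that marks phosphorylated beta-catenin (0.99), Rab14, a vesicle GTPase (0.98), Ctnna1 1448149_at (0.98), Osbpl11, an oxysterol-binding protein (0.98), and Tsc22d1, a leucine zipper protein (0.98). A likeness of at least 0.9 was common, at 479 probe sets or 2.83%. The arrays share their overall scaling, and Ctnnb1 itself correlated at 0.86 with the upper quartile of the arrays. After quantile normalization the 5 values were 0.65, 0.77, 0.74, 0.84 and 0.65. These are descriptions over 9 arrays of 3 groups.

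**Figure D4:**
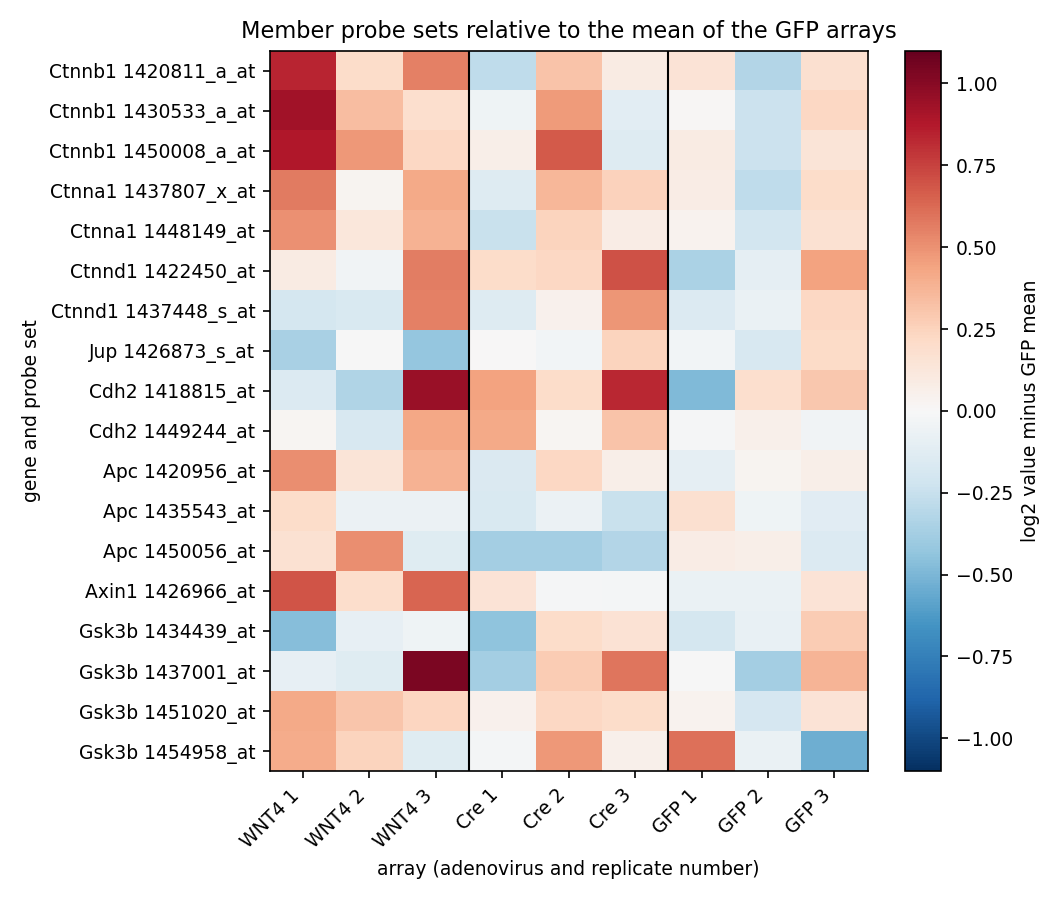
Log2 value minus the mean of the GFP arrays (colour) for the 18 brighter member probe sets (rows) on each array (columns, WNT4, Cre and GFP). Ctnnb1, Ctnna1, the brighter Axin1 probe set and Apc 1420956_at are highest on WNT4 1, while Cdh2 1418815_at, Ctnnd1 and Gsk3b 1437001_at are high on WNT4 3 and Cre 3.

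Cdh2 encodes N-cadherin, the main cadherin of granulosa cells, and it varied more between arrays of a group than between groups. Its probe set 1418815_at read 9.97, 9.80 and 11.07 with WNT4, 10.57, 10.33 and 10.95 with Cre, and 9.64, 10.31 and 10.42 with GFP. The array numbered 3 was the highest of each group, and WNT4 spanned both the highest and nearly the lowest value. The SD was 0.69 with WNT4, 0.32 with Cre and 0.42 with GFP. Against GFP the difference was 0.16 ± 0.35 with WNT4 and 0.49 ± 0.35 with Cre (limma adjusted p = 0.889 and 1.00). With WNT4 3 and Cre 3 left out these were -0.24 and 0.32. The other probe set, 1449244_at, differed by 0.09 ± 0.16 and 0.25 ± 0.16 in the same order of comparisons. In it the array numbered 3 was the highest with WNT4 only, while Cre 1 (9.99) and GFP 2 (9.63) were the highest of their groups.

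Ctnnd1 encodes p120-catenin, which binds cadherin tails and keeps cadherins at the membrane, and its values ran with those of 1 of the Cdh2 probe sets. In 1437448_s_at they were 10.23, 10.25 and 10.98 with WNT4, 10.28, 10.47 and 10.91 with Cre, and 10.27, 10.35 and 10.65 with GFP. The array numbered 3 was again the highest of each group, as it was in 1422450_at (8.92 with WNT4, 9.05 with Cre and 8.79 with GFP). The differences from GFP were 0.06 ± 0.23 with WNT4 and 0.13 ± 0.23 with Cre in the first probe set, and 0.21 ± 0.24 and 0.38 ± 0.24 in the second. Without WNT4 3 and Cre 3 they were -0.18 and -0.05 in the first and 0.03 and 0.21 in the second. The dim 1445830_at differed by -0.02 ± 0.15 and 0.08 ± 0.15. Ctnnd1 1437448_s_at correlated at 0.85 with Cdh2 1418815_at and at 0.92 with Gsk3b 1437001_at over the 9 arrays, but at 0.55 with Cdh2 1449244_at. After quantile normalization the first value stayed at 0.85 and the second fell to 0.83. The value of Ctnnb1 1420811_a_at and Ctnna1 1448149_at fell further, from 0.98 to 0.74.

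**Figure D5:**
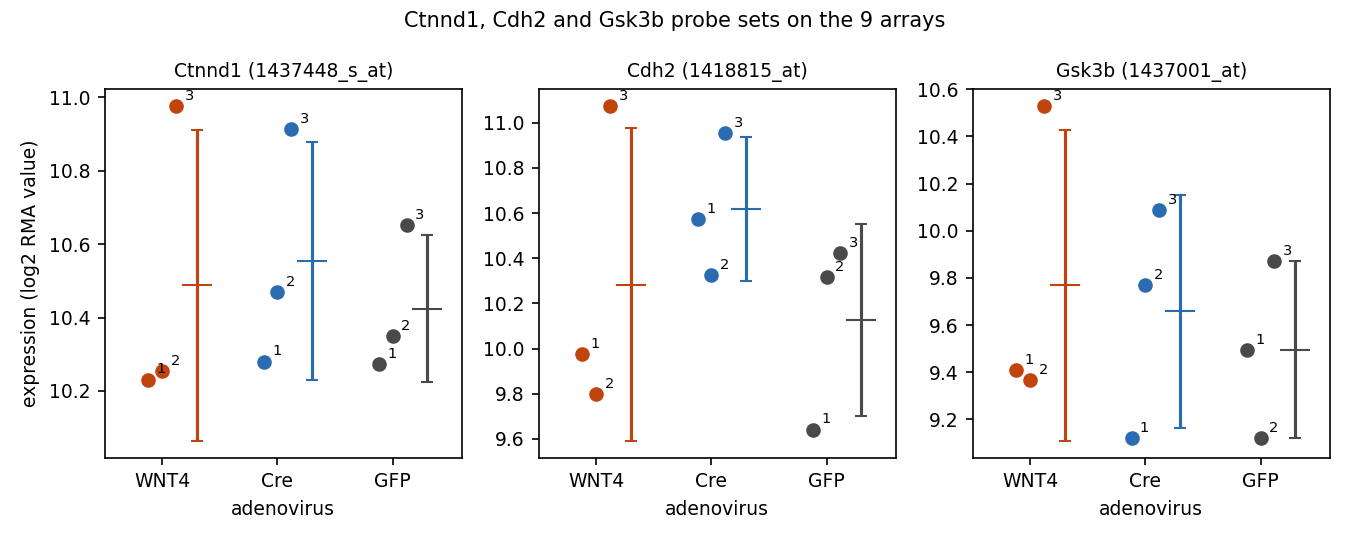
Log2 RMA value (y axis, a scale of its own in each panel) of Ctnnd1, Cdh2 and Gsk3b probe sets on each array by adenovirus (x axis), with replicate numbers beside the points and the group mean and SD as a bar. The array numbered 3 is the highest of its group in all 3 panels, at 11.07, 10.95 and 10.42 for Cdh2 1418815_at.

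Some marker genes of other cells had a pattern like that of Cdh2 1418815_at across the arrays, and others did not. In the list of 9 theca, stroma and smooth muscle genes, the smooth muscle genes Acta2 and Tagln correlated with Cdh2 1418815_at at 0.81 and 0.83 over the 9 arrays, and at 0.97 and 0.96 in deviations from the group means. The collagen gene Col1a1 followed at 0.76, and the other 6 genes of the list ranged from -0.33 to 0.52. These are descriptions over arrays that share their scaling. Acta2 read 10.81, 11.06 and 12.87 with WNT4, 12.11, 11.32 and 12.54 with Cre, and 11.40, 12.50 and 12.58 with GFP. The mean level of the whole list, relative to the GFP arrays, ran from -0.48 to 0.73 with WNT4, from -0.30 to 0.25 with Cre and from -0.42 to 0.26 with GFP, and 6 of its 9 genes had a mean of at least 6. The granulosa list stood at -0.46 on WNT4 3 and -0.51 on Cre 3, lower than on the other 7 arrays. The leukocyte list was highest on the array numbered 3 of each group, at 0.58 with WNT4, 0.68 with Cre and 0.45 with GFP, against -0.42 to 0.08 on the other 6 arrays. In it 4 of 7 genes had a mean of at least 6. The pan-leukocyte gene Ptprc was dimmer, at 5.68, 5.69 and 5.485 on WNT4 3, Cre 3 and GFP 3 and 4.34 to 4.835 on the other 6 arrays. Itgam read 4.39 to 4.73. Their part in the Cdh2 and Ctnnd1 values was not tested.

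Cdh3 and Cdh11 stayed near the bottom of the scale except on a single array. The brighter Cdh11 probe set, 1450757_at, read 6.38 on WNT4 1 and 4.78 and 4.76 on the other WNT4 arrays, against 4.76, 4.95 and 4.68 with Cre and 4.69, 5.18 and 5.08 with GFP. The difference from GFP was 0.32 ± 0.39 with WNT4, and -0.22 without WNT4 1. The stromal genes Dcn (9.50 on WNT4 1, and 6.41 to 7.10 on the other arrays) and Lum (7.33, and 4.65 to 4.91) were high on the same array. Pdgfra, Col3a1, Thy1 and Cyp17a1 of the theca and stroma list were also highest on WNT4 1. The rest of that list, Acta2 (10.81), Tagln (8.535) and Col1a1 (5.73), was lowest there. The part of these genes in the Cdh11 value was not tested. The other Cdh11 probe set, 1435120_at, differed by -0.07 ± 0.10 between WNT4 and GFP. The Cdh3 probe sets 1426673_at and 1441255_at differed by -0.18 ± 0.12 and -0.08 ± 0.11 between WNT4 and GFP and stayed between 4.31 and 5.46 on all arrays.

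Beyond the 10 genes, a list of 25 other genes of the destruction complex and of beta-catenin turnover was read, each from its brightest probe set. With WNT4 against GFP 10 were higher and 1 lower at an unadjusted p under 0.05 (all probe sets 9.12% and 3.91%, and those with a mean of at least 6, as 23 of the 25 have, 20.2% and 4.12%), 0 passed after adjustment, and the median was 0.31. The lowest p values belonged to Ppp2ca and Ppp2r1a, the catalytic and scaffold subunits of protein phosphatase 2A (0.52 ± 0.15 and 0.61 ± 0.19), Cul1, the cullin of the ligase that takes up phosphorylated beta-catenin (0.51 ± 0.15), and Csnk1a1, the casein kinase that primes it (0.43 ± 0.15). Their means lay between 10.55 and 13.31, in the classes where all probe sets had medians of 0.28 and 0.41. In Cre against GFP 1 of the 25 was higher and 0 were lower at an unadjusted p under 0.05 (all probe sets 1.01% and 1.22%). The higher one was Axin2, the feedback scaffold induced by beta-catenin, read from the brighter of its 2 probe sets (1.41 ± 0.33, adjusted p = 1.00). Axin2 read 8.14, 7.39 and 7.87 with WNT4, 9.27, 7.94 and 8.47 with Cre, and 7.42, 6.78 and 7.24 with GFP, each Cre array lying above each GFP array.

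Among 20 other catenins and catenin partners 1 was higher and 1 lower with WNT4 than with GFP at an unadjusted p (all probe sets 9.12% and 3.91%). Of the 20 genes 14 have a mean of at least 6, a level at which 20.2% of all probe sets were higher and 4.12% lower. The median was -0.05. The lower one, Ctnna2, encodes alpha-N-catenin, the form of alpha-catenin known from neurons. It read 7.43, 8.12 and 7.79 with WNT4, 8.58, 8.93 and 8.32 with Cre, and 8.74, 9.07 and 9.30 with GFP. All WNT4 arrays lay below all others, with a difference of -1.26 ± 0.22 from GFP (0.419-fold, limma adjusted p = 0.17) and of -0.83 ± 0.22 from Cre (0.563-fold, adjusted p = 0.773). The higher one was Pkp4, a p120 relative of junctions (0.27 ± 0.09). Chd8, a helicase that binds beta-catenin (0.35 ± 0.16), and Bcl9l, a coactivator of beta-catenin (0.31 ± 0.20), came next.

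Of 12 other cadherin genes 11 were measured, and 0 were higher and 1 lower with WNT4 than with GFP at an unadjusted p (all probe sets 9.12% and 3.91%). That gene, Cdh13, which encodes the membrane-anchored T-cadherin, is dim, at 5.35, 5.55 and 5.46 with WNT4, 5.58, 5.43 and 5.65 with Cre, and 6.03, 5.75 and 5.74 with GFP (-0.39 ± 0.11, limma adjusted p = 0.238). It was also the 1 cadherin of the list lower with Cre than with GFP at an unadjusted p (-0.29 ± 0.11), where 1.22% of all probe sets were lower. The next by p, Cdh22 (-0.21 ± 0.12), Cdh16 (-0.17 ± 0.12) and Cdh10 (0.20 ± 0.16), were dim as well.

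Nectins are the adhesion receptors that stand beside cadherins in adherens junctions, and 16 of 17 genes of nectin, tight and gap junctions were measured. With WNT4 against GFP 2 were higher and 1 lower at an unadjusted p (all probe sets 9.12% and 3.91%), with a median of 0.08. Of the 16 genes 10 have a mean of at least 6, a level at which 20.2% of all probe sets were higher and 4.12% lower. Nectin2 read 9.03, 8.67 and 8.87 with WNT4, 8.73, 8.31 and 8.52 with Cre, and 8.13, 7.78 and 8.001 with GFP, both other groups lying above GFP (0.88 ± 0.15 and 0.55 ± 0.15, limma adjusted p = 0.165 and 1.00). F11r, the tight junction receptor JAM-A, differed by 0.62 ± 0.13 with WNT4 and Nectin3 by -0.52 ± 0.19, while Tjp1, the tight junction scaffold ZO-1, differed by 0.54 ± 0.24 with overlapping groups. Both comparisons share the GFP arrays.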

How the data were processed

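The authors deposited log2 values and used RMA, per the submitters' processing notes. No source used here gives the RMA version, and the log2 scale was read from the values (3.46 to 15.3). Of 45101 probe sets 64 controls were left out. Probe sets were named from the platform annotation (34945 with 1 symbol, 932 with several, 9160 with none); list genes were also matched through RefSeq symbols (34741 matched by Entrez ID). limma 3.58.1 in R 4.3.3 (lmFit, eBayes, two-sided) was fitted to all 9 arrays with 3 group means, with Benjamini-Hochberg adjustment over the 45037 probe sets and calls at adjusted p under 0.05. An exact permutation test of 3 against 3 arrays cannot go below p = 0.1. In simulated WNT4 against GFP data with 45037 probe sets, 67 of 100 changes of 1 and 94 of 100 changes of 2 (log2) were called. The simulated noise was independent between probe sets, while the real arrays share deviations, so these shares are not the power of these data.

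The 10 genes and the gene lists were chosen with earlier results of these data known, and the 5 classes of level after these values were seen. Every probe set of the 10 genes is named, and from each list the 4 genes with the lowest p in WNT4 against GFP plus any called gene; Axin2, the marker genes named and the likeness to Acta2 and Tagln were chosen after their values were seen. Replicate numbers were checked for pairing by the rule that deviations of same-numbered arrays correlate above 0.1 in every pair. Between WNT4 and Cre these values were 0.21, 0.24 and 0.77, which meets the rule. Yet WNT4 1 correlated more with Cre 2 (0.32), and WNT4 2 more with Cre 1 (0.28). Only the arrays numbered 3 stood out, so pairing by number is not settled. Same-numbered arrays gave -0.08, 0.01 and 0.35 between WNT4 and GFP, and -0.04, -0.31 and 0.30 between Cre and GFP, which do not meet the rule.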

Additional observations from a re-analysis of the deposited data

How the results depend on the processing

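Of the 29 probe sets, 0 were called in Cre against GFP and in WNT4 against Cre under each alternative run, and in WNT4 against GFP 0 to 1 when single arrays were left out (Axin1 without WNT4 2). The number of all probe sets called in WNT4 against GFP, 7, was 0 with the arrays of these groups alone, 3 after quantile normalization, 17 after centring on the 75th percentile, 15 with probe sets under a mean of 6 left out, 1 with an intensity trend, 32 at an adjusted p under 0.1, and 0 to 748 when single arrays were left out (0 without GFP 2, GFP 3, any Cre array, WNT4 1 or WNT4 3, and 748 without WNT4 2). In Cre against GFP it was 0 to 1 when single arrays were left out (1 without GFP 1). A fit with a replicate block called 10 probe sets in WNT4 against GFP, 0 in Cre against GFP and 0 in WNT4 against Cre, and 0 of the 29 in each. The median difference of the 29 in WNT4 against GFP, 0.10, was -0.048 after 75th percentile centring (median over all probe sets -0.154), 0.24 without dim probe sets, 0.30 with 1 probe set per gene, and -0.017 to 0.14 when single arrays were left out (-0.017 without WNT4 3). In Cre against GFP it was -0.017 to 0.17 when single arrays were left out (0.17 without Cre 1, -0.017 without GFP 2), and in WNT4 against Cre it was 0.17 without dim probe sets. Leaving out Cre 3 and WNT4 3 together, chosen after seeing the data, gave 0 calls and a median of -0.017 in WNT4 against GFP. Differences larger than their standard error that changed sign were those of Ctnna1 in WNT4 against GFP after quantile normalization (-0.077 and -0.067) and of Cdh11 1450757_at in WNT4 against Cre (0.51), which ranged from -0.029 without WNT4 1 to 0.78 when single arrays were left out. The cause was not tested. The number of arrays limits the precision.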
